A study of Mus musculus with 4 samples.

Results

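The transcriptome of female LF2 embryonic stem cells (ESCs) that received both ascorbic acid (AA) and GSK-J4 was compared with that of cells given only the vehicles. LF2 is a mouse ESC line of strain 129/J. It was grown on feeder cells and passaged without them before the treatments. The treated library, AA+GSK-J4, comes from cells exposed for 24 hr to 50 μg/ml AA and 10 μM GSK-J4, and the control library, PBS+DMSO, from cells exposed to PBS and DMSO for the same time. These are 2 of the 4 libraries of the series, and the others are AA+DMSO, with AA alone, and PBS+GSK-J4, with GSK-J4 alone. Each condition has 1 library of 1 cell line, so no difference between libraries has a replicate and none was tested. Expression is given as FPKM, a read density per unit of exon length that is scaled to the mapped fragments of the library. Changes are log2 ratios of FPKM + 1, which understate the change of weakly expressed genes, and a gene is counted as higher or lower at a 2-fold difference. Of 9779 genes with a usable value, 9152 reached an FPKM of 1 in PBS+DMSO or AA+GSK-J4 and make up the comparison.

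AA, or vitamin C, keeps the iron of 2-oxoglutarate-dependent dioxygenases in its reduced, active form. This family includes the JmjC histone demethylases, the TET enzymes that oxidize 5-methylcytosine, the collagen hydroxylases and the prolyl hydroxylases that mark hypoxia-inducible factor (HIF) for destruction. GSK-J4 is a cell-permeable ester of an inhibitor of the H3K27 demethylases Utx and Jmjd3, and it competes with 2-oxoglutarate. The agents therefore act on the same enzyme family from opposite sides, and the combined library asks whether their effects on transcripts cancel, add or reinforce each other.

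The libraries were those of ESCs throughout. *Pou5f1*, which encodes Oct4, was at 867 FPKM in PBS+DMSO and 480 in AA+GSK-J4. *Sox2*, its partner at shared enhancers, was at 223 and 163 FPKM, and *Esrrb*, a nuclear receptor of naive ESCs, at 129 and 114. Of 12 feeder fibroblast markers, 5 had a value, and their summed FPKM was between 24.7 and 38.8 in the 4 libraries, with 27.7 in PBS+DMSO and 35.2 in AA+GSK-J4. *Acta2*, a smooth muscle actin, was at 12.9 and 17.8 FPKM. *Col1a1*, the main collagen of fibroblasts, was at 2.83 and 4.19 FPKM, and *S100a4*, a calcium-binding protein, at 6.70 and 9.05. *Col1a2* and *Thy1* were below 3 FPKM in both, and 7 markers were not analysed here. The part of feeder RNA in the results was not tested. Fewer cells of a type and less RNA per cell cannot be told apart in such bulk libraries.

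With both agents, 369 genes (4.03% of 9152) lay 2-fold or more above PBS+DMSO and 416 (4.55%) lay 2-fold or more below it. The genes nearest the threshold were *Atg2b* at a log2 ratio of 1.002 and *Clns1a* at -1.0003 inside it, with *Fam159a* and *Exoc3l* just outside. The higher genes were mostly weak in the control, with a median of 1.54 FPKM in PBS+DMSO and 5.79 in AA+GSK-J4, and 57.7% of them had an FPKM under 2 in PBS+DMSO. The lower genes were mostly strong, with medians of 29.6 and 12.2 FPKM. The median log2 ratio of all genes was -0.19, and the FPKM summed over all genes kept was 0.752 times that of PBS+DMSO in AA+GSK-J4. The ratio spans both deposited tables, and the sources used here do not say how the authors scaled the libraries to each other. Higher genes made up 47.0% of the called genes as deposited, 74.5% after centring on the median ratio, 79.3% after upper-quartile scaling and 86.5% when libraries were scaled to the same total. The median of all genes moved to 0.07 and 0.17 under those scalings. The ratio was also lower in stronger genes, with a median of 0.10 for a mean FPKM of 1 to 2 and -0.61 above 50, so each gene list below is set against these values.

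For every gene, the combined log2 ratio is exactly the sum of a GSK-J4 part and an AA part, each the mean of that agent's ratio with and without the other agent. Among the 5430 genes that reached 5 FPKM in every library, the GSK-J4 part had an SD over genes of 0.46 and the AA part one of 0.13, beside 0.48 for the combined ratio. The transcriptome with both agents thus followed GSK-J4 in most genes. The called genes showed the same split: the median GSK-J4 part was 1.29 in the higher genes and -1.02 in the lower genes, and the median AA part was 0.0028 and -0.13. AA made the larger part in 23 of the 369 higher genes and 35 of the 416 lower genes. Of those 35 genes, 9 reached 5 FPKM in every library. They were *Slc16a3*, *Ldha*, *Tpi1*, *Bnip3*, *Pgk1*, *Igfbp2*, *Pfkl*, *Aldoa* and *Gtf2i*, of which *Pgk1*, *Igfbp2*, *Aldoa* and *Gtf2i* fall outside the rule for named genes and were picked on their values. Of these 9, 5 are enzymes of glycolysis, and *Slc16a3* exports the lactate it makes.

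**Figure D1:**
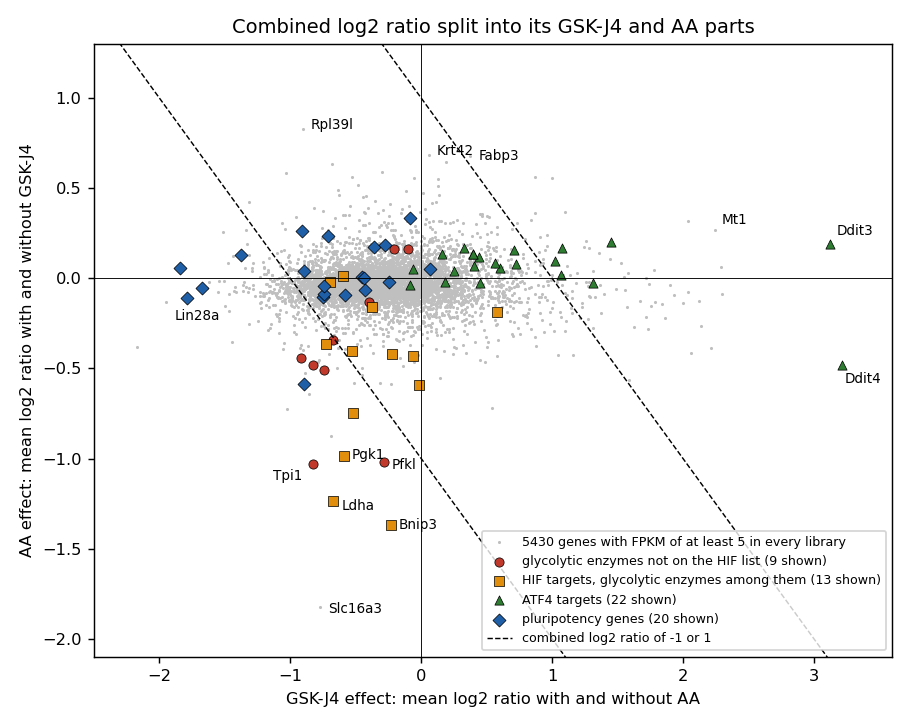
Each point is a gene that reached 5 FPKM in every library (5430 genes). The x axis is its GSK-J4 part and the y axis its AA part (log2 ratios of FPKM + 1), so the combined log2 ratio is x + y and reaches -1 or 1 on the dashed lines. Genes spread along the GSK-J4 axis, the ATF4 targets (triangles) to the right and the pluripotency genes (diamonds) to the left, while *Slc16a3*, *Bnip3*, *Ldha*, *Tpi1*, *Pfkl* and *Pgk1* hang below the rest along the AA axis.

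Glycolytic enzymes were the list with the lowest median with both agents at the settings used here. This place depended on the treatment of weak genes. With 0.1 instead of 1 added to FPKM, the neural list was lower, at -1.51 against -1.28. Among genes that reached 5 FPKM in either library, the formative (-1.48) and neural (-1.39) lists were lower than the glycolytic enzymes. Of 15 enzymes on the list 13 were measured, and 9 of the 13 were at least 2-fold lower and none higher with both agents, beside 4.55% of all genes. The count depended on the scaling of the libraries: 8 remained 2-fold lower after centring, 6 after upper-quartile scaling and 3 (*Ldha*, *Tpi1* and *Pgk1*) after scaling to the same total, beside 2.10%, 1.80% and 1.33% of all genes. With GSK-J4 alone none of them reached 2-fold (3.52% of all genes were lower), and with AA alone 1 did, *Ldha* (0.710% of all genes). The median log2 ratio of the list was -0.52 with GSK-J4 alone, -0.40 with AA alone and -1.27 with both, against -0.18, -0.05 and -0.19 for all genes. Each agent alone left the summed FPKM of the 13 enzymes at about the same level, 67.5% of the PBS+DMSO sum with GSK-J4 and 66.5% with AA. With both it was 39.2%. Over all 9152 genes the summed FPKM was 76.3% of that of PBS+DMSO with GSK-J4, 94.9% with AA and 75.2% with both. Of the 13 enzymes, 9 had a mean FPKM over 50, the range in which the median combined ratio of all genes was -0.61 and the median AA part -0.05.

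*Ldha* encodes lactate dehydrogenase A, which turns pyruvate into lactate, and its locus lies on chromosome 7 from 46845700 to 46855629 (mm10). It was at 933 FPKM in PBS+DMSO, 450 in AA+DMSO, 666 in PBS+GSK-J4 and 248 in AA+GSK-J4. Each agent alone gave a lower level than the vehicles, and the level with both lay below either. The combined log2 ratio was -1.91, the lowest of the 1072 genes with a mean FPKM over 50. *Pgk1*, phosphoglycerate kinase on the X chromosome (106187114 to 106203774), was at 1218, 692, 910 and 408 FPKM in the same order, a combined ratio of -1.57. Again the library with both agents was the lowest. *Tpi1*, triosephosphate isomerase, was at 203, 105, 121 and 55.1 FPKM, and its combined ratio was -1.86. *Aldoa*, fructose-bisphosphate aldolase, was at 595, 354, 414 and 246 FPKM. *Pfkl*, the liver form of phosphofructokinase, was at 87.8, 45.7, 76.8 and 34.9 FPKM, a pattern set mainly by AA. *Pgam1*, *Eno1*, *Pkm* and *Gapdh*, which act later in the pathway, had combined ratios from -1.36 to -1.02 with the larger part from GSK-J4. The remaining members did not reach 2-fold. *Hk2*, hexokinase 2, was at 48.7 FPKM in PBS+DMSO and 29.3 in AA+GSK-J4, with an AA part of -0.02. *Pfkp* was at -0.53, and *Hk1* and *Pfkm* were at 0.07 and -0.04. Several of these enzymes have processed pseudogenes in the mouse genome, and how reads shared with them were counted is not given in the sources used here.

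*Slc16a3* encodes Mct4, the carrier that exports lactate from glycolytic cells, and lies on chromosome 11 from 120949026 to 120959551. It was at 41.0 FPKM in PBS+DMSO, 13.3 in AA+DMSO, 28.5 in PBS+GSK-J4 and 5.93 in AA+GSK-J4. The library with both agents had the lowest value and that with AA alone the next. Its combined log2 ratio of -2.60 was the lowest of the 3273 genes with a mean FPKM of 10 to 50, and its AA part of -1.82 was the lowest among the genes that reached 5 FPKM in every library. *Bnip3*, a mitophagy receptor induced by hypoxia, was at 46.4, 19.7, 44.6 and 14.6 FPKM. Its level hardly differed between PBS+DMSO and PBS+GSK-J4, and its combined ratio of -1.60 was mostly AA.

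The wider list of HIF targets moved with AA and not as 1 group with GSK-J4. HIF is the transcription factor that turns on glycolytic and survival genes in low oxygen. Of 23 genes 20 were kept. With both agents 5 were at least 2-fold lower and 2 at least 2-fold higher, beside 4.55% and 4.03% of all genes. After scaling to the same total 3 were lower and 3 higher, beside 1.33% and 8.51% of all genes. The AA ratio was below 0 both without and with GSK-J4 in 19 of the 20, which is 95.0% beside 36.9% of all genes. The exception was *Mxi1*, a repressor of Myc targets, at 0.01 and 0.02. The AA ratios without and with GSK-J4 share no library, but each sets 1 deposited table against the other. AA therefore cannot be told apart from a difference between the tables. The median AA part of the list was -0.41, against -0.03 for all genes. Besides the enzymes above, *Pdk1*, which closes the entry of pyruvate into mitochondria, was at 33.5 FPKM in PBS+DMSO and 15.2 in AA+GSK-J4. *Slc2a1*, the glucose transporter Glut1, was at 182, 121, 181 and 119 FPKM, so that only the AA libraries were lower. *Egln3*, a HIF prolyl hydroxylase that HIF itself induces, was at 5.66, 2.79, 5.88 and 2.87 FPKM. *Kdm3a*, an H3K9 demethylase of the same enzyme family, was at 21.9, 16.03, 18.6 and 13.7 FPKM. The members that were higher with both agents were higher through GSK-J4. *Vegfa*, the angiogenic growth factor, was at 3.79, 3.59, 12.8 and 12.3 FPKM, and *Stc2*, a secreted stanniocalcin that is also an ATF4 target, at 3.51, 2.58, 17.6 and 13.8.

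The promoters of *Ldha* and *Slc16a3* are shown because they encode the glycolytic enzyme with the lowest AA part and the lactate exporter, and because HIF binds the core ACGTG. The sequences are from RefSeq (GRCm38.p6, the mm10 assembly), from 250 bases before to 50 bases after the annotated start, 5′ to 3′ on the strand of the gene. Capitals mark ACGTG on either strand, and overlapping matches run together as CACGTG. *Ldha*, the first of 2 starts in the table, is chr7:46845554-46845853 on the plus strand with 2 matches on this strand and 3 on the other. *Slc16a3* is chr11:120948817-120949116 on the plus strand with 2 matches.
Ldha: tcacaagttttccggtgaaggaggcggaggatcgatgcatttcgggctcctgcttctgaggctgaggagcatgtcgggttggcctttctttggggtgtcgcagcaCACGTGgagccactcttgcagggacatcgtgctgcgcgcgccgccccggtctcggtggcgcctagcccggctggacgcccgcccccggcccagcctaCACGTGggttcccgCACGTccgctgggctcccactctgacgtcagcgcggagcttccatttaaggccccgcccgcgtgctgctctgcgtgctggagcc
Slc16a3: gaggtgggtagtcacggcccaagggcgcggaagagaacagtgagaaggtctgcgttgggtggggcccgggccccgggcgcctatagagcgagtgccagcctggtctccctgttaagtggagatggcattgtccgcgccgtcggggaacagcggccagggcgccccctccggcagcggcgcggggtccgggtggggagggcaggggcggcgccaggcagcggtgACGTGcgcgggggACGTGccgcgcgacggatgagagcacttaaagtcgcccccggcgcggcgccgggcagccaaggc
The core was found in 9 of 13 glycolytic enzymes and 14 of 19 HIF targets that matched the table by symbol, counting any start of a gene, beside 21.8% of all 27025 genes. A match describes these letters only.

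**Figure D2:**
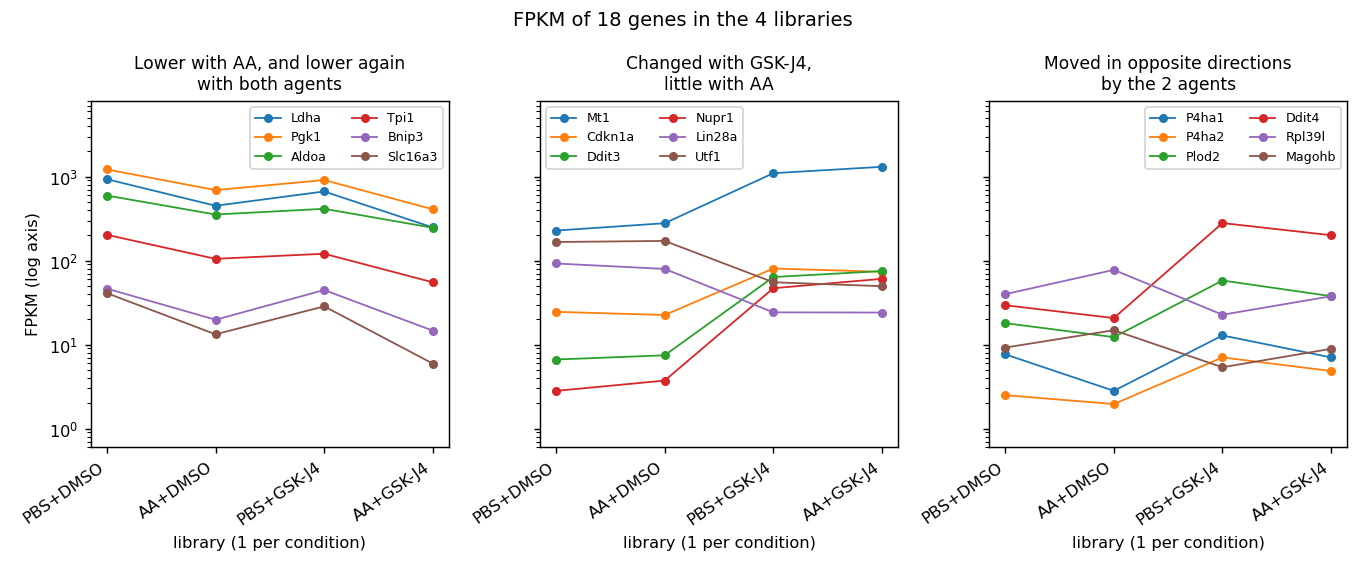
FPKM (log axis) of 18 genes in the 4 libraries, 1 library per condition, with lines joining the values of a gene. On the left, *Ldha*, *Pgk1*, *Aldoa*, *Tpi1*, *Bnip3* and *Slc16a3* are lowest in AA+GSK-J4. In the middle, the values follow GSK-J4 and differ little with AA, and on the right the agents move a gene in opposite directions.

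In several glycolytic genes, and in *Slc16a3* and *Bnip3*, the combined log2 ratio also went below the sum of the single-agent log2 ratios. The departure from that sum equals the GSK-J4 ratio with AA minus the GSK-J4 ratio without AA, each taken within 1 table. It was -0.37 for *Ldha*, -0.34 for *Pgk1*, -0.35 for *Bnip3* and -0.53 for *Slc16a3*. The direction depends on the log2 scale. With differences in FPKM added instead, AA+GSK-J4 lay above the sum in *Ldha*, *Pgk1* and *Slc16a3* and below it in *Bnip3*. In the range over 50 FPKM, where the departure had an SD of 0.13, only 5 of 1072 genes were at or below *Ldha* and 8 at or below *Pgk1*. The lowest of the 1072 was *Igfbp2*, a binding protein of insulin-like growth factors, at 154, 103, 117 and 51.3 FPKM and a departure of -0.59. Between 10 and 50 FPKM, 35 of 3273 genes were at or below *Slc16a3* and 95 at or below *Bnip3*. Of the 13 glycolytic enzymes 10 had a departure below 0, or 76.9% beside 43.1% of all genes, and the range of the list was -0.37 to 0.17. None of these departures reached 2-fold, and without replicates they could not be tested.

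Only 12 of the 5430 stronger genes were lower by at least 0.5 in both parts. Taken singly, the GSK-J4 part was that low in 1630 of the 5430 genes and the AA part in 21. The 12 genes were *Slc16a3*, *Ldha*, *Tpi1*, *Upp1*, *Pgk1*, *Igfbp2*, *Dnmt3l*, *Tdgf1*, *Zc3h8*, *Aldoa*, *Eno1* and *Gtf2i*. A combined ratio at least 2-fold lower follows from this choice, since that ratio is the sum of both parts. *Upp1*, uridine phosphorylase, was at 185, 120, 97.4 and 54.2 FPKM in PBS+DMSO, AA+DMSO, PBS+GSK-J4 and AA+GSK-J4. *Dnmt3l*, the cofactor of the de novo DNA methyltransferases, was at 82.3, 47.1, 40.4 and 28.4 FPKM, and *Tdgf1*, the Nodal coreceptor Cripto, at 525, 378, 304 and 187 FPKM. In these genes both single-agent libraries lay between the vehicles and the combination. Higher by at least 0.5 in both parts were only *Hexa*, a lysosomal hexosaminidase, at 17.5 and 48.9 FPKM in PBS+DMSO and AA+GSK-J4, and *Renbp*, an epimerase of amino sugars, at 29.9 and 89.8. These genes were picked on their values, apart from those the rule names, which are *Slc16a3*, *Ldha* and *Tpi1*.

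In other genes the agents worked against each other. *Rpl39l*, a ribosomal protein paralog of the germline, lies on chromosome 16 from 10170238 to 10174880 and was at 39.8 FPKM in PBS+DMSO, 77.5 in AA+DMSO, 22.7 in PBS+GSK-J4 and 37.7 in AA+GSK-J4. It was high with AA alone, low with GSK-J4 alone and near the vehicle level with both. Its AA part of 0.83 was the highest of the 5430 genes, and reads shared with *Rpl39* could not be checked. *Magohb*, a paralog of an exon junction protein, had the same form, at 9.21, 14.8, 5.37 and 8.90 FPKM and a combined ratio of -0.04. *Plod2*, the lysyl hydroxylase of collagen telopeptides, was at 18.001, 12.3, 57.9 and 37.7 FPKM, higher with GSK-J4 and lower with AA in each pair of libraries. The alpha subunits of collagen prolyl hydroxylase behaved alike: *P4ha1* was at 7.66, 2.81, 12.8 and 7.03 FPKM and *P4ha2* at 2.50, 1.96, 7.04 and 4.85. The beta subunit *P4hb*, a protein disulfide isomerase, did not, and was lower with each agent at 153, 133, 119 and 109 FPKM. The list of collagens and their hydroxylases had 21 genes, of which 15 were kept and 6 not analysed here. Of the 15, 2 were 2-fold or more higher and none lower, beside 4.03% and 4.55% of all genes. The median GSK-J4 part was 0.40 and the median AA part -0.13. Of the 15 AA parts 13 were below 0, beside 62.3% of all genes. *Serpinh1*, the collagen chaperone Hsp47, was at 15.8, 14.4, 44.4 and 37.2 FPKM. The collagen chains themselves stayed under 2-fold, with *Col1a1* and *Col5a2* at 0.44 and 0.47.

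Of the 10 highest genes with both agents, 5 belonged to the stress response driven by ATF4, a transcription factor that is translated when protein synthesis is throttled. They were *Nupr1*, *Ddit3*, *Atf3*, *Ddit4* and *Trib3*. Of 35 targets 29 were kept, and 14 were at least 2-fold higher and none lower, beside 4.03% of all genes. With GSK-J4 alone 13 were higher (4.60% of all genes), and with AA alone none (0.404%). *Nupr1*, a small chromatin-associated stress protein, was at 2.81, 3.73, 46.9 and 60.7 FPKM in PBS+DMSO, AA+DMSO, PBS+GSK-J4 and AA+GSK-J4. Its combined log2 ratio of 4.02 was the highest among genes of at least 5 FPKM in either library. *Ddit3*, which encodes the pro-apoptotic factor Chop, was at 6.64, 7.45, 63.7 and 74.99 FPKM. *Trib3*, a pseudokinase induced by Chop, was at 4.10, 7.34, 28.2 and 34.3 FPKM. In these genes the libraries with AA were a little above their partners without it, and the AA ratio was above 0 both without and with GSK-J4 in 18 of the 29 targets, or 62.1% beside 19.8% of all genes. The median AA part of the list was 0.09. *Atf3*, a stress-induced partner of ATF4, was at 0.55 FPKM in PBS+DMSO and 10.8 in AA+GSK-J4. *Ddit4*, an mTOR inhibitor that HIF also induces, went the other way with AA, at 29.4, 20.7, 280 and 201 FPKM. *Slc38a2* and *Wars*, an amino acid transporter and a tRNA ligase, were the lowest members, at -0.12 and -0.01. Departures over the list stayed between -0.44 and 0.47.

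The promoter of *Nupr1* is shown with the composite element of ATF4 and C/EBP, here TGATGNAA, in capitals. It is chr7:126625421-126625720 (GRCm38.p6, RefSeq), printed on the strand of the gene, which is the minus strand, and its 1 match lies on the opposite strand.
Nupr1: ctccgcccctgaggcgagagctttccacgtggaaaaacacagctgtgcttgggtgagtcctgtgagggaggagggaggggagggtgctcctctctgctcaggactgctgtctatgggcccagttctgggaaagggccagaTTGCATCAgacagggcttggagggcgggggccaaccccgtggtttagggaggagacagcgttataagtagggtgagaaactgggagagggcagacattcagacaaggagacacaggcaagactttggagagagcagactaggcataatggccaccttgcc
The element was found in 10 of 25 ATF4 targets that matched the table, or 40.0%, beside 4.51% of all genes.

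Metallothioneins, which bind zinc and copper, were the strongest of the higher genes. *Mt1* was at 228 FPKM in PBS+DMSO, 279 in AA+DMSO, 1099 in PBS+GSK-J4 and 1309 in AA+GSK-J4, and *Mt2* at 365, 462, 1528 and 1877. Both were highest in the library with both agents, with combined ratios of 2.52 and 2.36 and departures of -0.04 each. These related genes are neighbours on chromosome 8, and reads shared between them could not be checked. *Mt3*, the neuronal form, was at 16.7, 15.1, 3.22 and 4.36 FPKM, and the zinc importer *Slc39a10* at 16.8, 11.8, 4.47 and 5.05, both lower with both agents. The zinc exporter *Slc30a1* was at 7.92 FPKM in PBS+DMSO and 14.0 in AA+GSK-J4. The *Mt1* promoter, chr8:94178839-94179138 on the plus strand, is printed with the metal response element core TGCNCNC in capitals. It holds 3 matches on this strand.
Mt1: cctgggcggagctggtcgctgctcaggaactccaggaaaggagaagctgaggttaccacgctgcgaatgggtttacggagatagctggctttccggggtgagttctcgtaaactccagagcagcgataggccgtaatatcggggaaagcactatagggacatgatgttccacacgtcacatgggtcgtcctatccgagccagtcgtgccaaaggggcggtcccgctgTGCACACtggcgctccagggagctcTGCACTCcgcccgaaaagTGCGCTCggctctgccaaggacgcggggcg
The core is common, since 53.6% of all genes hold it.

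Targets of p53, the DNA damage factor, followed GSK-J4. Of 22 measured, 10 were at least 2-fold higher and none lower with both agents (4.03% of all genes were higher), and 10 were higher with GSK-J4 alone (4.60%). The median combined ratio was 0.91 and the median AA part -0.11. *Cdkn1a*, the cell cycle inhibitor p21, was at 24.5 FPKM in PBS+DMSO and 73.6 in AA+GSK-J4, and its departure was -0.01. *Plk2* and *Perp*, a polo-like kinase and a desmosome protein, had combined ratios of 1.996 and 1.87. *Bax* was the lowest member at -0.56. Genes of mitosis had a ratio below 0 in all 17 cases, beside 64.1% of all genes, with a median of -0.85. Of these 4 were at least 2-fold lower, beside 4.55% of all genes. After scaling to the same total, all 17 were still below 0, beside 35.7% of all genes, but only *Plk1* was past 2-fold. *Plk1*, the main mitotic polo-like kinase, was at 81.7 and 27.2 FPKM in PBS+DMSO and AA+GSK-J4. Genes of DNA replication were below 0 in all 16 cases, and in 13 after scaling to the same total, with a median of -0.76. Of these *Ccne1*, cyclin E1, was past 2-fold at 139 and 55.7 FPKM, which it no longer was after scaling to the same total. Genes above 50 FPKM, to which 9 of the mitosis genes and 11 of the replication genes belong, had a median of -0.61.

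Pluripotency genes had a ratio below 0 in 19 of 21 cases, beside 64.1% of all genes, with a median combined ratio of -0.68 and a median AA part of 0.01. Of the 21 genes, 14 had a mean FPKM over 50, the range in which the median combined ratio of all genes was -0.61. After scaling to the same total 16 were below 0, beside 35.7% of all genes, and the median was -0.27. As deposited, those at least 2-fold lower, beside 4.55% of all genes, were *Lin28a*, *Eras*, *Utf1*, *Tdgf1* and *Dppa3*, of which the last pair was picked on its values. *Dppa3* was not past 2-fold under either scaling, while the other 4 were. *Lin28a*, an RNA-binding repressor of let-7, was at 92.4 FPKM in PBS+DMSO and 24.1 in AA+GSK-J4. *Eras*, an ESC-specific Ras on the X chromosome, was at 87.7 and 24.7 FPKM, and *Utf1*, a chromatin factor of bivalent genes, at 167 and 49.6. For *Nanog* and *Pou5f1* the combined ratios were -0.82 and -0.85, with AA parts of -0.09 and -0.10. *Prdm14* and *Tcl1*, a repressor of differentiation and a coactivator of Akt, were at -0.50 and -0.48. *Tcl1* had 65.9 FPKM in PBS+DMSO, 36.1 with GSK-J4 alone and 47.0 with both agents. *Tfcp2l1*, a naive ESC factor, was the highest member, at 26.6, 31.8, 23.5 and 31.96 FPKM. Here both AA libraries were above both libraries without AA.

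Formative genes, which mark the step that follows naive pluripotency, were 2-fold lower in 7 of 15 cases and higher in 1, beside 4.55% and 4.03% of all genes. *Fgf15*, an FGF ligand on chromosome 7 (144896448 to 144900937), had the lowest combined ratio of the genes with at least 5 FPKM in either library, -2.73. It was at 11.97 FPKM in PBS+DMSO, 7.20 in AA+DMSO, 3.15 in PBS+GSK-J4 and 0.95 in AA+GSK-J4, lower with each agent and lowest with both. *Dnmt3b*, the de novo DNA methyltransferase, was at 48.2, 39.9, 10.9 and 7.38 FPKM, a combined ratio of -2.55. *Zic2* and *Zic5*, zinc finger factors of neural and epiblast cells, had combined ratios of -1.72 and -1.47. *Etv4*, an Ets factor downstream of FGF signalling, was the exception at 1.117, 5.83, 2.32 and 6.07 FPKM, high in both AA libraries. *Fgf17*, a related ligand, was at 15.8 and 3.12 FPKM in PBS+DMSO and AA+GSK-J4. Among genes of streak and mesoderm *Hoxc13* was at 1.33 and 5.06 FPKM, and *Nodal*, the ligand that patterns the streak, at 42.0, 39.5, 105 and 74.5. With both agents *Nodal* stayed under 2-fold at 0.81. This list had 18 genes, of which 10 were not analysed here and 6 were kept. Of the 6 genes kept 1 was at least 2-fold higher, beside 4.03% of all genes. After centring, upper-quartile scaling or scaling to the same total 4 were, *Nodal* and *Wnt3* among them. The shares of all genes were then 6.12%, 6.91% and 8.51%. *Wnt3*, a Wnt ligand, was at 0.30, 0.14, 3.04 and 1.58 FPKM, and all 6 had an AA part below 0, beside 62.3% of all genes. Of 18 neural genes 12 were not analysed here. Of the 6 kept 3 were at least 2-fold lower and 1 higher, beside 4.55% and 4.03% of all genes. *Gbx2* and *Pou4f2*, homeobox and POU factors, had ratios of -1.52 and -1.43, and *Neurod1*, a neuronal bHLH factor, had 1.62.

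**Figure D3:**
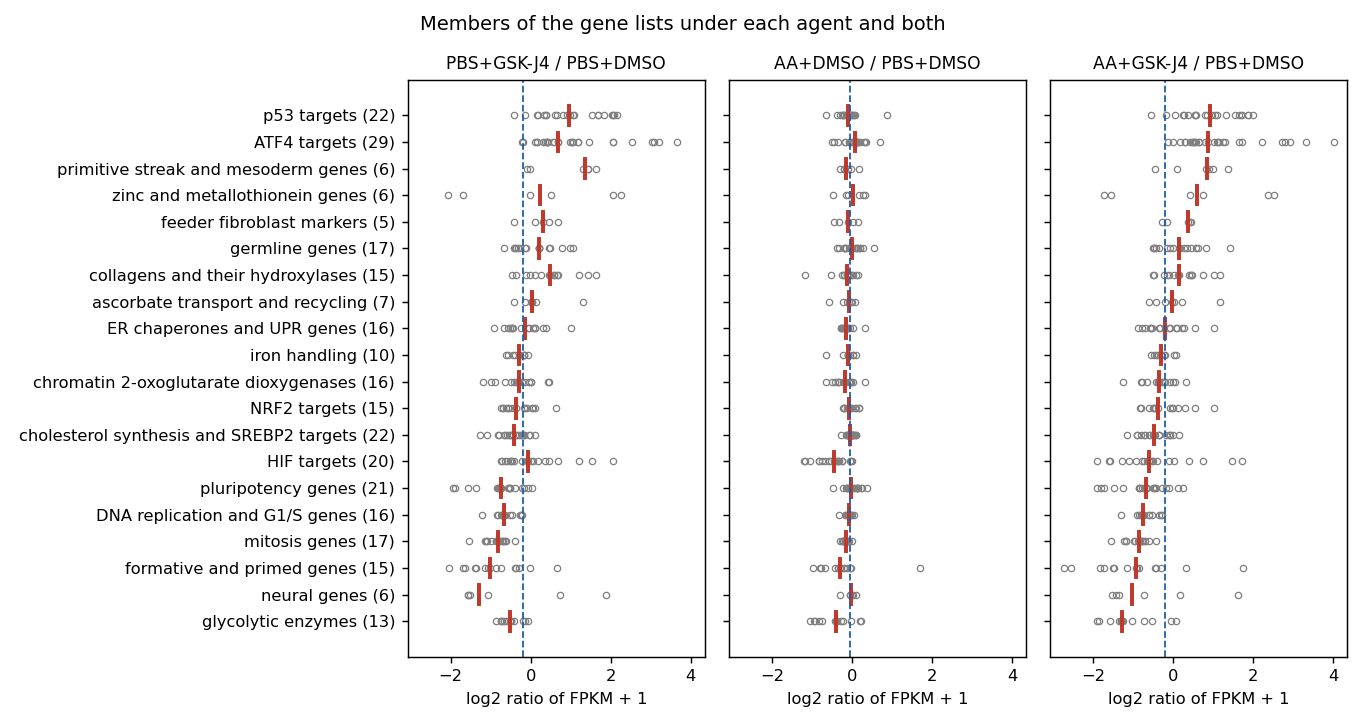
Log2 ratios of FPKM + 1 for the members (open circles) of each list with at least 5 kept members, whose number stands in parentheses, with their median (red bar) and the median of all genes (blue dashed line). The 3 panels set GSK-J4 alone, AA alone and both agents against the same PBS+DMSO library. Most lists look alike on the left and right, while the glycolytic enzymes move from -0.52 and -0.40 with single agents to -1.27 with both.

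In the other lists few genes reached 2-fold. Of all genes, 4.55% were at least 2-fold lower and 4.03% higher, and their median was -0.19. The median combined ratio was -0.47 for 22 cholesterol synthesis genes, of which only *Fdps*, farnesyl diphosphate synthase, was 2-fold lower, a call lost after centring and under either scaling. It was -0.21 for 16 ER chaperone genes, where *Herpud1* was 2-fold higher, and 0.15 for 17 germline genes, where *Taf7l* was 2-fold higher. For 15 NRF2 targets it was -0.38, and *Sqstm1*, the autophagy receptor p62, was the member at least 2-fold higher, with 100 FPKM in PBS+DMSO, 157 with GSK-J4 alone and 203 with both agents. For 10 genes of iron handling it was -0.31, with the ferritins *Ftl1* and *Fth1* at 0.01 and 0.07. The medians of the NRF2, iron handling and ER chaperone lists were above 0 after scaling to the same total. The chromatin dioxygenases themselves had a median of -0.34 over 16 genes, which also turned positive under that scaling, and *Kdm4c*, an H3K9 demethylase, was the one past 2-fold, at 23.1, 18.1, 11.2 and 9.03 FPKM. It was not past 2-fold under either scaling. Of the 24 genes on that list, 7 were not analysed here. Of 7 genes of ascorbate transport and recycling, *Gsto1*, a dehydroascorbate reductase, was past 2-fold at 11.9, 11.2, 30.8 and 28.2 FPKM. *Slc23a2*, the sodium-dependent carrier of ascorbate, was at 11.5 and 13.6 FPKM in PBS+DMSO and AA+GSK-J4. Of 4 trophoblast genes none reached 2-fold, and all 4 were above 0 with a median of 0.41. On the X chromosome 27 of 348 genes (7.76%) were at least 2-fold lower and 12 (3.45%) higher, against 4.42% and 4.05% of 8800 autosomal genes, and the medians were -0.20 and -0.19.

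Outside the lists, the 10 highest genes included *Sct*, the hormone secretin, at 0.56, 1.54, 12.9 and 10.7 FPKM, and *Them5*, a mitochondrial thioesterase, at 0.73, 0.64, 11.6 and 8.74. *Brpf3*, a scaffold of histone acetyltransferases, had 0.14, 3.96, 3.0001 and 6.28 FPKM. It was higher in each treated library than in the vehicles. Among the lowest were *Hnrnpdl*, an RNA-binding protein, at 25.5 and 5.28 FPKM in PBS+DMSO and AA+GSK-J4, *Gap43*, a growth cone protein, at 17.4 and 3.67, and *Gcfc2* at 5.20 and 0.64. *Mta1*, a subunit of the NuRD complex, was at 6.21, 0.89, 5.58 and 0.64 FPKM, so that its AA part of -1.97 nearly equalled its combined ratio of -2.14. AA also gave higher levels in *Krt42*, a keratin, at 14.8, 26.3, 16.6 and 25.4 FPKM, and in *Fabp3*, a fatty acid-binding protein, at 34.5, 51.7, 41.8 and 72.5. *Fabp3* was the one of these past 2-fold with both agents, at 1.05. *Wnk1*, a kinase of ion transport, was at 6.56, 7.48, 5.16 and 12.5 FPKM.

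The combined ratio was compared with the sum of the single-agent ratios in 9363 genes, those that reached 1 FPKM in any library. It lay at least 2-fold above the sum in 121 genes (1.29%) and at least 2-fold below it in 106 (1.13%), with a median departure of 0.03 and an SD of 0.34. These genes were weak: their median mean FPKM was 1.89, against 8.83 for all genes, and 85.9% of the 227 genes had a mean FPKM of at most 5, beside 35.9% of all genes. The SD of the departure was 0.62 up to 1 FPKM and 0.13 above 50 FPKM, while that of the combined ratio was 0.67 and 0.51. The share of genes 2-fold from the sum was 10.996% in the weakest range and 0.0933% in the strongest, where *Nsfl1c*, a p97 cofactor picked on its values, was the one gene. Depth, which is not known, cannot be told apart from an interaction of the agents in the weak genes.

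**Figure D4:**
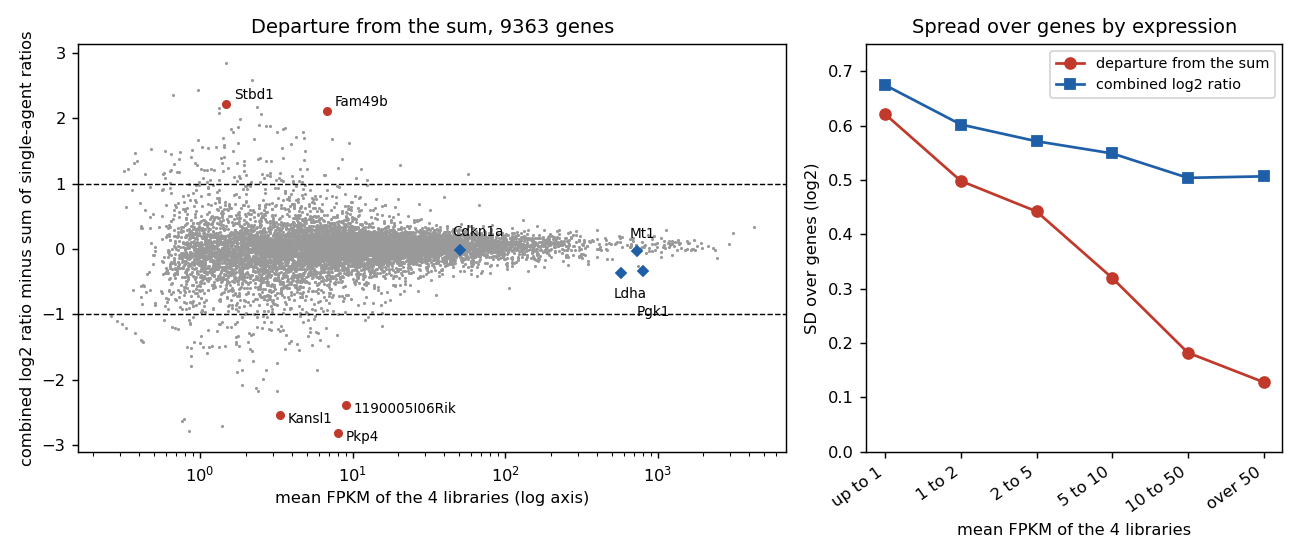
On the left, the combined log2 ratio minus the sum of the single-agent ratios for 9363 genes against mean FPKM (log axis), with dashed lines at 2-fold. On the right, the SD over genes of this departure (circles) and of the combined ratio (squares) by range of mean FPKM. The departure narrows from 0.62 to 0.13 as expression increases while the combined ratio goes from 0.67 to 0.51, and *Ldha* and *Pgk1* lie at the lower edge of the strong genes.

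In many of the genes with the widest departures, 1 library stood apart from the rest. Above the sum, *Stbd1*, a glycogen-binding protein, is listed at 0 in PBS+DMSO and AA+DMSO and was at 0.41 and 5.54 FPKM in PBS+GSK-J4 and AA+GSK-J4. *Fam49b*, a regulator of Rac1, was at 9.37, 6.67, 2.14 and 9.02 FPKM, so that only PBS+GSK-J4 was low. *Sfmbt2*, a Polycomb-group protein, had the same form at 5.98, 4.63, 0.39 and 2.997. *Apod*, a lipocalin, was at 7.83e-05 FPKM in AA+DMSO and between 2.96 and 8.65 FPKM in the other libraries. Below the sum, *Pkp4*, an armadillo protein of cell junctions, was at 2.11, 15.4, 8.47 and 6.07 FPKM, and *Dlgap3*, a postsynaptic scaffold, at 0.56, 5.12, 2.196 and 1.78. Their departures were -2.82 and -2.18, and in both the single-agent libraries were above the combination.

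The departure divided by 2 weighs the 4 libraries with the same sizes as the AA part, so counting error of the libraries enters both alike. The AA libraries are in 1 deposited table and the PBS libraries in the other. A difference between the tables would therefore enter the AA part but cancel from the departure, and AA cannot be told apart from it. Among the 5430 stronger genes the AA part had an SD of 0.13 and the divided departure one of 0.09. An AA part of at least 2-fold was found in 5 genes, which were *Slc16a3*, *Bnip3*, *Ldha*, *Tpi1* and *Pfkl*, all of them lower, while the divided departure reached that size in none. At a log2 size of 0.5 the counts were 35 and 9. Across these genes the AA ratios without and with GSK-J4 had a Spearman correlation of 0.24, given as a description because genes are not replicates. These AA ratios share no library, but both span the deposited tables in the same way.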

How the data were processed

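RNA of female LF2 ESCs was sequenced under 4 conditions, with 1 library for each, and libraries were assigned to conditions from the sample titles. The authors removed duplicates from single-end reads and used TopHat2, Cufflinks2 and CummeRbund, and the submitters' processing notes name TopHat2 and mm10. Duplicate removal can lower the values of strong genes. The deposited FPKM values, in 2 tables of 11033 rows, are headed log10 but hold linear values. The AA+DMSO column is headed with a misspelt vehicle name and was taken as that library. The tables also hold the authors' fold changes, test statistics, p-values and q-values, which were not used.

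Rows were joined by identifier, and FPKM was summed per gene name. The 157 genes with a failed estimate were left out. Ratios are log2((FPKM + 1)/(FPKM + 1)). With 1 library per condition no test was run and no p-value computed. The members, lists and rules were chosen with earlier results of these data known. Genes were named by a rule. It took genes the study names for these treatments, though *Xist* and *Tsix* were not among those taken. It took the 10 highest and 10 lowest combined ratios (FPKM of at least 5) and the 8 widest departures each way. It also took the 2 highest and 2 lowest members of each list, and the 5 highest and 5 lowest AA parts. Other genes were picked on their values. Alternatives were pseudocounts of 0.1 and 5, other filters, scalings and thresholds, values per row, inclusion of failed genes, and additivity on the linear scale. The depth is unknown, since steps of whole reads in weak genes gave the relative depth only up to a small whole-number factor (0.795 or 1.59 for AA+DMSO, 0.641 or 1.28 for PBS+GSK-J4, and 0.524 or 0.419 for AA+GSK-J4, all relative to PBS+DMSO). Functions were tested on simulated data. Promoter sequences are from RefSeq, matched by symbol. Tables were computed in Python 3.11.15 with pandas 2.3.3 and numpy 2.4.6, and plots drawn with matplotlib 3.10.9.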

Additional observations from a re-analysis of the deposited data

Results flagged for a closer look

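In 11 of the named genes, 1 agent's ratio was at least 1.5-fold above the control in 1 background and at least 1.5-fold below it in the other. The difference could not be tested with 1 library per condition, and the cause was not tested. The value of each is the departure from the sum on the log2 scale. AA alone gave higher values and AA on top of GSK-J4 lower ones in *Kansl1* (departure -2.53, from 1.64 to -0.89), *1190005I06Rik* (-2.39), *Hsdl1* (-2.18), *Ptp4a3* (-1.86), *Scamp5* (-1.75) and *Wdr41* (-1.54). The reverse order was found in *Mtmr4* (departure 1.89, from -1.25 to 0.64), *Ebag9* (1.88) and *Gpr19* (1.85). The GSK-J4 ratio likewise had opposite signs without and with AA in *Pkp4* (departure -2.82, from 1.61 to -1.21), *Kansl1*, *Hsdl1*, *Dlgap3* (-2.18) and *Wdr41*, and in *Mtmr4*. Each of these genes was chosen for a wide departure by the naming rule. *1190005I06Rik* had the highest mean over the 4 libraries, with 7.995 FPKM in PBS+DMSO, 14.7 in AA+DMSO, 10.6 in PBS+GSK-J4 and 2.87 in AA+GSK-J4.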

How the results depend on the processing

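All values rest on 1 library per condition. No paired analysis was possible because each condition has 1 library. Counts of higher and lower genes were 369 and 416 as reported. They were 665 and 608 with a pseudocount of 0.1, 90 and 190 with a pseudocount of 5, 206 and 342 for genes that reach 5 FPKM in either library, 232 and 355 for an FPKM of at least 1 in both, 560 and 192 when centred on the median, 632 and 165 after upper-quartile scaling, 779 and 122 after scaling to the same total, 922 and 1840 at 1.5-fold, and 32 and 7 at 4-fold. The median of all genes was -0.29 for an FPKM of at least 5, 0 when centred, and turned positive after upper-quartile scaling (0.073) and scaling to the same total (0.168). Genes above and below the sum numbered 121 and 106 as reported, 248 and 283 with a pseudocount of 0.1, 6 and 5 with a pseudocount of 5, 33 and 35 for an FPKM of at least 5, 42 and 45 for an FPKM of at least 1 in every library, 312 and 373 at 1.5-fold, 10 and 11 at 4-fold, and 221 and 201 with 1 value per row. The SD of the departure was 0.62 and 0.18 with pseudocounts of 0.1 and 5, and that of the AA part 0.34 and 0.11. Scaling to the same total turned the medians of the chromatin dioxygenases (0.0185), iron handling (0.0347), NRF2 targets (0.0228) and ER chaperones (0.183). It also turned that of ascorbate transport and recycling, from -0.03 to 0.376. The ER chaperone and ascorbate medians were positive after upper-quartile scaling too (0.079 and 0.269). The median of the glycolytic enzymes was -0.86 after scaling to the same total. Of 128 genes named by the rule, 58 were at least 2-fold as reported, and none of them changed direction under a pseudocount, filter or scaling. Under a scaling or centring 7 of them lost the threshold, *Ebag9*, *Fdps*, *1190005I06Rik*, *Kdm4c*, *Prc1*, *Ccne1* and *Pfkl*, and 21 did with a pseudocount of 5. Genes outside the rule are not in these counts. Of those, *Aldoa*, *Eno1*, *Pgam1*, *Pkm*, *Gapdh*, *Pdk1* and *Dppa3* also lost the threshold under a scaling or centring. The cause was not tested.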

Other observations

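*Rhox6*, *Rhox9* and *Dazl*, genes of the germline, were higher with AA in each pair of libraries, without and with GSK-J4. *Rhox6* and *Rhox9*, homeobox genes of a reproductive cluster, were at 29.0 and 34.5 FPKM in PBS+DMSO, 33.6 and 42.3 in AA+DMSO, 21.7 and 21.5 in PBS+GSK-J4, and 28.7 and 31.1 in AA+GSK-J4. *Dazl*, an RNA-binding protein of germ cells, was at 4.68, 7.32, 5.56 and 7.505 FPKM in the same order, so that both AA libraries were above both libraries without AA. The combined ratios were -0.01 for *Rhox6*, -0.14 for *Rhox9* and 0.58 for *Dazl*, all under 2-fold. These 3 genes were picked on their values. Of the 17 germline genes kept, 6 were higher and 7 lower with AA in both pairs, and the median AA part was 0.02.

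*Hnf4a*, a liver and visceral endoderm factor, was at most 0.000608 FPKM in 3 libraries and 1.27 FPKM in AA+GSK-J4. *Grhl2*, an epithelial factor of the formative list, was at 3.72 FPKM in PBS+DMSO and between 1.15 and 1.51 FPKM in the other libraries, so that its departure from the sum was 1.19.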
